A study of Mus musculus with 6 samples.

Results

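NRF2 (gene *Nfe2l2*) is the transcription factor that switches on the antioxidant and detoxification genes of a cell, and this report describes 10 genes of that response in cardiac fibroblasts after Cre-mediated TET3 deletion. The genes were chosen by symbol, as *Nfe2l2* itself, its repressor *Keap1*, and the targets *Hmox1*, *Nqo1*, *Gclc*, *Gclm*, *Txnrd1*, *Srxn1*, *Prdx1* and *Gsr*. All 10 were found among the 22063 genes of the count table, and all 10 had enough reads to be tested. RNA had been sequenced from primary cardiac fibroblasts of mice with floxed *Tet3* alleles, 3 libraries (GFP) from cells given an adenovirus coding for green fluorescent protein and 3 (CRE) from cells given an adenovirus coding for Cre recombinase, which removes DNA between loxP sites. Floxed alleles, a virus and a day of exposure to TGF-β, the cytokine under which fibroblasts become contractile myofibroblasts, were shared by both groups. The labels give neither the age of the mice nor the source of each library. The study calls its replicates biological without saying whether they were separate animals or cultures, so the p-values measure the spread between these libraries, which may be technical. Cultures that had not seen TGF-β were not analysed.

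In unstressed cells the adaptor KEAP1 holds NRF2 and passes it to a ubiquitin ligase for degradation. Oxidants and electrophiles modify cysteines of KEAP1, NRF2 then escapes degradation, enters the nucleus, pairs with a small MAF protein and binds antioxidant response elements (AREs) in the promoters and enhancers of its targets. BACH1 competes for the same elements as a repressor. In fibroblasts the pathway is known as a brake on oxidant signalling, which the oxidase NOX4 feeds during TGF-β treatment.

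The promoters of 3 genes, picked by their values, are given first. *Gclm* fell, *Srxn1* rose and *Prdx1* did neither at the threshold used, where 25.5% of all tested genes were higher and 25.7% lower. RefSeq start sites (GRCm38.p6) were available for 7 of the 10 genes, in 9 windows from 250 bases before to 50 bases after the start. *Gclc*, *Gsr* and *Hmox1* had no entry. The windows were searched on both strands for the ARE core TGACNNNGC and for TGACTCA, the TPA response element (TRE) bound by AP-1, which can overlap an ARE. The ARE core was found in 5 of the 9 windows, 1 each of *Gclm*, *Nfe2l2*, *Prdx1*, *Srxn1* and *Txnrd1*, and in 12.4% of all 32851 windows. TGACTCA was found in windows of *Prdx1* and *Srxn1* and in 5.2% of all windows. The 250 bases before the start are printed 5′ to 3′ on the strand of the gene, with matches to either motif in capitals. They lie at chr3:122245307-122245556 for *Gclm*, chr2:152105274-152105523 for *Srxn1* and chr4:116685349-116685598 for *Prdx1*, each on the plus strand.
Gclm: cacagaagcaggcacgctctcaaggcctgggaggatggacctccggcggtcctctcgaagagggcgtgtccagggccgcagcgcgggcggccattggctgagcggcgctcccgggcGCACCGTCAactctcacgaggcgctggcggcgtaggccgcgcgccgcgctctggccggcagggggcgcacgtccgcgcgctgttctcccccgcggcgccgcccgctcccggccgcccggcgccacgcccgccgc
Srxn1: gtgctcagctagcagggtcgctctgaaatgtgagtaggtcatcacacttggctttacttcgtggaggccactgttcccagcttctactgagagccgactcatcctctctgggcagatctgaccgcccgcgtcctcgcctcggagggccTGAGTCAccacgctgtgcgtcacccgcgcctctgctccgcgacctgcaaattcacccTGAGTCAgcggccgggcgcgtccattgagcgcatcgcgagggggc
Prdx1: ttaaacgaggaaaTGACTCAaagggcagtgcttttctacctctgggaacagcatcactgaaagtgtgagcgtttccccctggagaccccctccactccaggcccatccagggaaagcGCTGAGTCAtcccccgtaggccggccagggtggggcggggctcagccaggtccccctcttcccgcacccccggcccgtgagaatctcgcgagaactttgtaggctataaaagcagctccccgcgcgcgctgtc
The single match of *Gclm* is an ARE core, GCACCGTCA as printed, which begins 134 bases before the start. *Srxn1* had a pair of TGACTCA matches, 102 and 45 bases before the start, and its ARE core lay 29 bases after the start, beyond the stretch shown. In *Prdx1* the motifs overlap in GCTGAGTCA, 133 bases before the start. These matches are letters in a window and not measured binding sites.

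The libraries held between 17002126 and 20343590 counts, and values are given as normalized read counts (CPM, read counts scaled to a common depth with TMM factors) and as mean ± SD (n = 3 libraries) unless single libraries are listed. Adjusted p-values come from edgeR's two-sided test with Benjamini-Hochberg adjustment over all tested genes unless another tool is named. *Tet3*, counted over the whole gene, had 1044, 965 and 1000 counts with GFP and 642, 649 and 637 with CRE, so that CRE libraries kept 60.8% of the GFP level (log2 fold change -0.72, edgeR adjusted p of 5.36e-05). All 10 listed fibroblast markers were detected, and 9 of them were lower in CRE libraries (summed level of 39130 to 40390 CPM in GFP and 21970 to 24040 in CRE). That sum was mostly collagen, with *Col1a1*, *Col1a2* and *Col3a1* at 13729, 11568 and 9804 CPM in GFP libraries. *Thy1* did not pass (-0.10, adjusted p of 0.281). Of 10 macrophage markers 5 were tested and 3 were lower (58.8 to 66.5 CPM in GFP, 34.5 to 38.0 in CRE), and 9 of 10 endothelial markers were lower (474.0 to 531.5 against 208.3 to 242.6). Smooth muscle and pericyte markers were lower for 6 and higher for 1 of 10 (1067 to 1221 against 898.6 to 915.4). No cardiomyocyte marker of 10 passed the filter, *Myh6* had no count, and their sum stayed between 0.902 and 1.61 CPM. In such bulk samples, fewer cells of a type and less RNA per cell cannot be told apart.

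Per length, the 10 genes spanned a wide range of levels. In the GFP libraries the deposited FPKM (fragments per kilobase of transcript, scaled to sequencing depth) ran from *Prdx1* at 403.4 ± 26.8 (SD, n = 3) and *Hmox1* at 239.0 ± 3.99 through *Nfe2l2* (99.4 ± 8.52), *Txnrd1* (81.0 ± 2.20), *Gclm* (44.8 ± 2.72) and *Srxn1* (26.9 ± 1.44) to *Gclc* (15.04 ± 0.793), *Gsr* (14.99 ± 1.34), *Keap1* (13.0 ± 0.257) and *Nqo1* (5.74 ± 0.600). Neighbours in this order did not overlap between their libraries, except *Gclc* and *Gsr*. In the CRE libraries *Srxn1* (40.2 ± 2.72 FPKM, SD, n = 3) stood above *Gclm* (36.9 ± 1.72), with libraries that overlapped, and *Gclc*, *Keap1* and *Gsr* overlapped each with the next.

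CRE was compared with GFP to ask which of these transcripts differ with TET3 deletion under TGF-β. *Gclm* and *Gsr*, both of the glutathione arm, and *Hmox1* were lower in CRE libraries, and *Srxn1* was higher. With edgeR (adjusted p below 0.05), 1 gene was thus higher and 3 lower, or 40% of the 10 genes, where 51.2% of all 12862 tested genes passed, 25.5% higher and 25.7% lower. Of the other 6, 5 had a log2 fold change within 0.06 of 0. Libraries of the groups did not overlap for 5 of the 10 genes, with CRE above GFP for 1 and below for 4, against 59.6% of all tested genes, 30.0% above and 29.6% below. None of the 10 reached a fold over 1.5 or under 0.66 at an unadjusted p below 0.05 by edgeR, DESeq2 or limma-voom, a bar that 17.8% of all tested genes passed by edgeR (7.52% higher, 10.3% lower). By each tool 5 of the 10 had such a p, beside 57.0% of all tested genes by edgeR, 50.8% by DESeq2 and 57.0% by limma-voom. The median log2 fold change of the 10 genes was 0.003, against 0.005 over all tested genes. With libraries scaled by size alone, which moves the median of all tested genes by 0.16, 6 of the genes were higher and 1 lower, where 43.0% of all tested genes were higher and 16.2% lower at that scaling. Only the directions of *Gclm* and *Srxn1* were called under every one of 16 other settings.

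**Figure D1:**
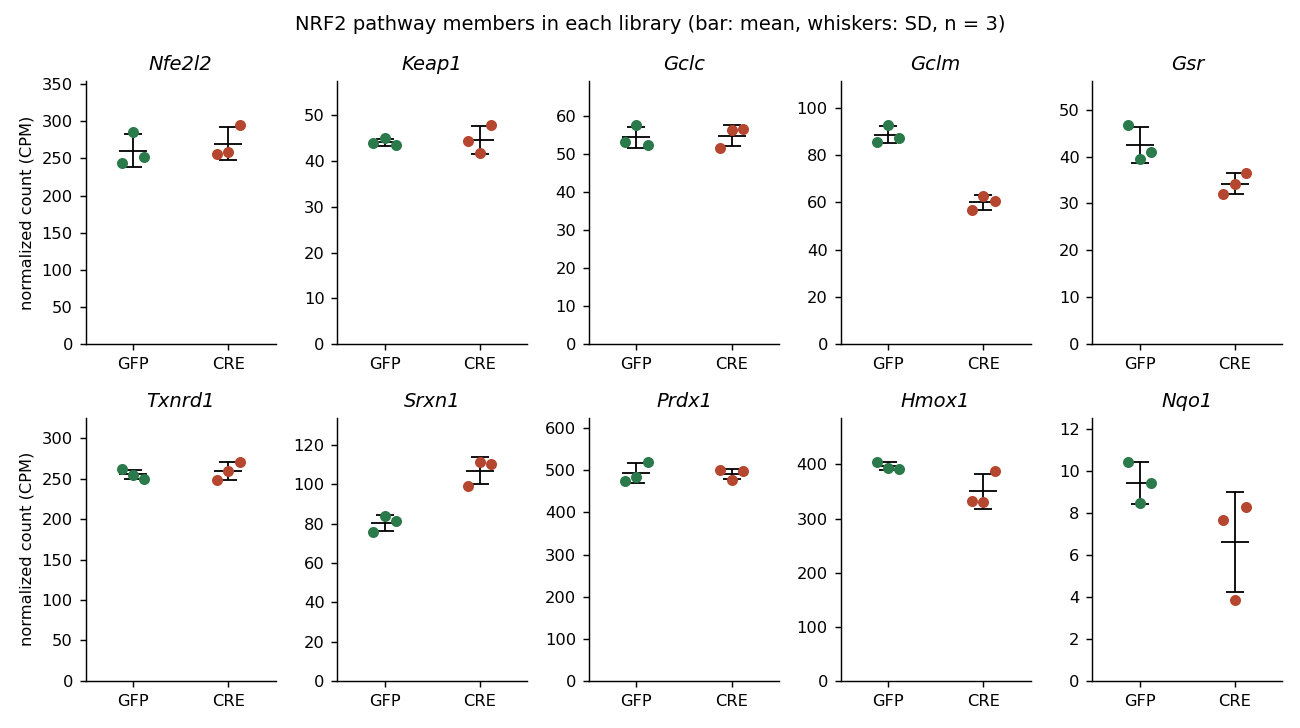
Normalized count (CPM, linear axis from 0) of each of the 10 genes in the 3 GFP and 3 CRE libraries. Points are libraries, bars the mean and whiskers the SD. All CRE libraries lie below all GFP libraries for *Gclm*, *Gsr*, *Hmox1* and *Nqo1* and above them for *Srxn1*.

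Neither regulator passed the test. *Nfe2l2* (ENSMUSG00000015839, chromosome 2, positions 75675513 to 75704641, minus strand, GRCm38) had 243.6, 285.6 and 252.3 CPM in GFP and 256.4, 258.4 and 295.0 CPM in CRE libraries, so the groups overlapped. Its log2 fold change was 0.05 (95% interval -0.11 to 0.21, adjusted p of 0.581). *Keap1* (chromosome 9, positions 21229730 to 21239361, minus strand) had 44.0, 45.0 and 43.5 CPM in GFP and 44.3, 41.7 and 47.9 CPM in CRE libraries, with CRE replicates on both sides of the GFP range. The log2 fold change of *Keap1* was 0.02 (95% interval -0.12 to 0.15, adjusted p of 0.843). Both passed as higher when libraries were scaled by size alone, at 0.21 and 0.18, and both turned slightly negative without CRE replicate 3, at -0.01 and -0.03. An antisense gene shares 510 exon bases with *Keap1*, and whether counting used the strand is not given in the sources used here.

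Within a library, the ratio of one transcript to another does not depend on scaling. The 4 ratios tested were chosen, as the genes were, with earlier results of these data known. The ratio of *Nfe2l2* to *Keap1* counts was 5.54, 6.35 and 5.79 in GFP and 5.78, 6.19 and 6.15 in CRE libraries. These overlapped (exact two-sided permutation p = 0.7, also 0.7 adjusted over 4 ratios). *Bach1*, the competing repressor, fell from 72.8 ± 5.81 to 56.5 ± 1.25 CPM, or -0.37 on the log2 scale (SE 0.06, adjusted p of 0.000656), although it did not pass on log2(FPKM + 1) values (-0.18, adjusted p of 0.0549). Its counts relative to those of *Nfe2l2* were 0.277, 0.276 and 0.286 in GFP and 0.218, 0.216 and 0.197 in CRE libraries. Every CRE library was thus lower in this ratio than every GFP library, by 0.41 on the log2 scale, with an exact permutation p = 0.1, the smallest that 3 against 3 can give (0.2 adjusted over the 4 ratios tested).

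The other partners moved in both directions. Of 7 listed partners and competitors of NRF2, 6 were tested, 3 were higher and 2 were lower, beside 25.5% and 25.7% of all tested genes. Of the small MAF genes, whose products pair with NRF2 or BACH1 on DNA, *Mafg* fell from 81.9 ± 5.55 to 63.6 ± 3.84 CPM (log2 fold change -0.36, adjusted p of 0.000821) and *Mafk* rose from 66.3 ± 3.46 to 78.9 ± 5.78 CPM (0.25, adjusted p of 0.00737). *Maff*, named after its values were seen, rose from 40.1 ± 3.60 to 48.4 ± 2.57 CPM (0.27, adjusted p of 0.00926), and the calls of all 3 held in the 16 other settings. *Bach2*, a relative of *Bach1*, rose by 0.83 (SE 0.25) at only 1.34 ± 0.282 CPM in GFP libraries, a call lost without GFP replicate 2 (adjusted p of 0.0655), without CRE replicate 2 (0.0815) and on FPKM values. *Nfe2l1*, which codes for the related factor NRF1, had 734.3 ± 36.2 CPM in GFP and 713.9 ± 14.8 CPM in CRE libraries (adjusted p of 0.497) and passed as higher with library size alone (0.12).

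Among 6 genes of NRF2 turnover, 1 was higher and 1 lower, where 51.2% of all tested genes passed. With library size alone 2 were higher and 0 lower (43.0% and 16.2% of all tested genes), without GFP replicate 1 it was 0 and 1, and without CRE replicate 2 none passed. *Sqstm1*, which codes for p62, an autophagy receptor that binds KEAP1 and is itself an NRF2 target, fell from 602.8 ± 55.2 to 512.9 ± 20.3 CPM (log2 fold change -0.23, adjusted p of 0.0123). It did not pass with library size alone (-0.07, adjusted p of 0.365) or without CRE replicate 2 (-0.20, adjusted p of 0.0562). *Fbxw11*, a ubiquitin ligase adaptor, rose by 0.15 (adjusted p of 0.0234), a call lost in DESeq2 (adjusted p of 0.0523) and without GFP replicate 1 (adjusted p of 0.0672) or CRE replicate 2 (0.0880). *Cul3*, the cullin that works with KEAP1, had log2 fold changes of 0.10 (adjusted p of 0.0773) in the main test and 0.26 with library size alone, where it passed. It also passed as higher with upper-quartile scaling (0.12, adjusted p of 0.0401) and on FPKM values. *Gsk3b*, a kinase that marks NRF2 for degradation, was at -0.10 (adjusted p of 0.103) and at 0.06 with library size alone.

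Glutathione is made by glutamate-cysteine ligase, whose catalytic subunit is encoded by *Gclc* and whose modifier subunit, which makes the enzyme more efficient, by *Gclm*. The pair diverged. *Gclm* (ENSMUSG00000028124, chromosome 3, positions 122245557 to 122270732, plus strand) had 85.7, 92.7 and 87.3 CPM in GFP and 56.6, 62.6 and 60.6 CPM in CRE libraries. Every CRE library was below every GFP library, and the CRE libraries kept 67.7% of the GFP level (log2 fold change -0.56 with SE 0.05, adjusted p of 1.81e-05). It stayed lower and past the threshold in all 16 other settings, between -0.59 and -0.28, the latter on log2(FPKM + 1) values. *Gclm* shares 296 exon bases with a transcript on the other strand and 244 with a processed pseudogene on its own strand, neither in the table, so reads from there are uncertain. *Gclc* (chromosome 9, positions 77754535 to 77794485, plus strand) had 53.2, 57.8 and 52.5 CPM in GFP and 51.7, 56.5 and 56.7 CPM in CRE libraries. These overlapped, with a log2 fold change of 0.01 (95% interval -0.12 to 0.14, adjusted p of 0.882) that turned negative when any of 4 libraries was left out and passed as higher with library size alone (0.17, adjusted p of 0.0280).

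The divergence was plain within libraries. There were 1.61, 1.60 and 1.66 *Gclm* counts for each *Gclc* count in GFP libraries and 1.09, 1.11 and 1.07 in CRE libraries. The ratio fell by 0.58 on the log2 scale, to 67.1% of its GFP level, against SDs of 0.028 and 0.026 among GFP and CRE libraries. An exact permutation test gave p = 0.1, the smallest possible (0.2 adjusted over 4 ratios). On deposited FPKM the ratio fell by 0.46.

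**Figure D2:**
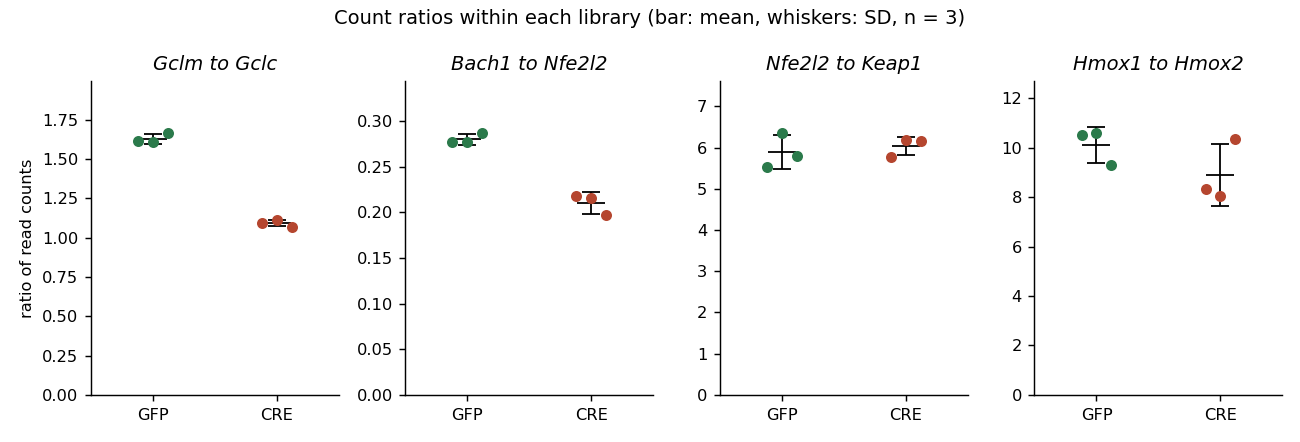
Ratio of read counts of 2 genes within each library (linear axes from 0), for *Gclm* to *Gclc*, *Bach1* to *Nfe2l2*, *Nfe2l2* to *Keap1* and *Hmox1* to *Hmox2*; points are libraries, bars the mean, whiskers the SD (n = 3). The first pair of ratios separate the groups, with *Gclm* to *Gclc* at 1.60 or more in GFP and 1.11 or less in CRE libraries, and the other two overlap.

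*Gsr* (chromosome 8, positions 33652523 to 33698163, plus strand) encodes glutathione reductase, which returns oxidised glutathione to its reduced form with NADPH. It had 46.8, 39.5 and 41.0 CPM in GFP and 32.0, 34.2 and 36.4 CPM in CRE libraries. All CRE libraries were below all GFP libraries, and the log2 fold change was -0.31 (SE 0.08, adjusted p of 0.00702). With library size alone it was at -0.15 (adjusted p of 0.129), and on log2(FPKM + 1) values at -0.14 (adjusted p of 0.174), so that call was lost under each.

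Around these, 14 of 16 listed genes of glutathione supply and use were tested, 2 were higher and 6 lower, beside 25.5% and 25.7% of all tested genes. *Slc7a11*, the cystine importer that supplies cysteine for glutathione, fell from 46.6 ± 6.87 to 23.7 ± 1.40 CPM (log2 fold change -0.97, adjusted p of 2.94e-05). *Abcc1*, an exporter of glutathione conjugates, fell from 154.9 ± 3.95 to 111.4 ± 8.43 CPM (-0.48, adjusted p of 8.25e-05). *Ggct*, of glutathione breakdown, rose from 4.005 ± 0.151 to 7.16 ± 0.542 CPM (0.84, adjusted p of 0.000369). All 3 calls held in the 16 other settings. *Gpx8*, a peroxidase of the endoplasmic reticulum, was lower by a small amount (-0.21, adjusted p of 0.0162) that was lost with library size alone (-0.04) and without GFP replicate 2 (adjusted p of 0.0563), GFP replicate 3 (0.0641) or CRE replicate 2 (0.0730). The secreted peroxidase *Gpx3* was at -0.07 (adjusted p of 0.324), at -0.13 without GFP replicate 1, where it passed, and at 0.09 with library size alone. With library size alone, 5 of these 14 genes were higher and 4 lower, beside the same 43.0% and 16.2% of all tested genes.

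Thioredoxin reductase, peroxiredoxin and sulfiredoxin form the other arm, in which peroxiredoxins reduce hydrogen peroxide and sulfiredoxin revives those that have been over-oxidised. *Srxn1* (ENSMUSG00000032802, chromosome 2, positions 152105516 to 152111376, plus strand), the gene of sulfiredoxin, had 75.5, 83.8 and 81.2 CPM in GFP and 99.2, 111.5 and 110.1 CPM in CRE libraries. Every CRE library was above every GFP library, at 133.4% of the GFP level on average (log2 fold change 0.41 with SE 0.06, adjusted p of 0.000232). It stayed higher and past the threshold in all 16 other settings, between 0.37 and 0.58. Its substrate *Prdx1* (chromosome 4, positions 116685544 to 116700822, plus strand) had 474.7, 485.0 and 520.9 CPM in GFP and 499.9, 477.5 and 497.6 CPM in CRE libraries. The CRE values lay inside the GFP range, with a log2 fold change of -0.01 (95% interval -0.11 to 0.10, adjusted p of 0.936) that was 0.16 and passed as higher with library size alone. *Txnrd1* (chromosome 10, positions 82833951 to 82897712, plus strand), the cytosolic reductase of thioredoxin, had 261.5, 254.0 and 249.7 CPM in GFP and 248.8, 259.6 and 271.0 CPM in CRE libraries. The groups overlapped (log2 fold change 0.03, 95% interval -0.08 to 0.13, adjusted p of 0.662), and library size alone gave 0.19 (adjusted p of 0.00569). Chosen after the values were seen, the ratio of *Srxn1* to *Prdx1* counts is given without a test. It was 0.159, 0.173 and 0.156 in GFP and 0.198, 0.234 and 0.221 in CRE libraries.

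**Figure D3:**
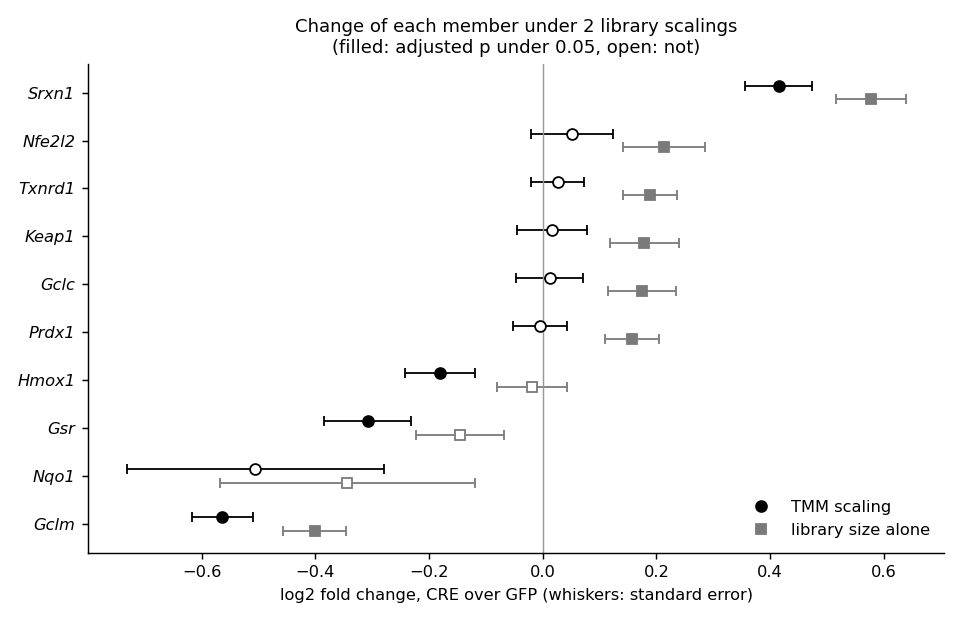
Log2 fold change, CRE over GFP, of each of the 10 genes (x axis; whiskers are the standard error) under TMM scaling (circles) and library size alone (squares), filled where the adjusted p was under 0.05. *Gclm* and *Srxn1* are filled under both, and the other genes move by about 0.16 between scalings, which changes the call of 7 of them.

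All 14 other genes of the thioredoxin list were tested, and 2 were higher and 6 lower, beside 25.5% and 25.7% of all tested genes. *Txnip*, which codes for an inhibitor of thioredoxin, fell from 125.8 ± 9.33 to 52.1 ± 3.49 CPM (log2 fold change -1.27, adjusted p of 5.08e-07). *Prdx6*, a peroxiredoxin that also acts on phospholipids, fell from 286.4 ± 11.8 to 155.4 ± 4.63 CPM (-0.88, adjusted p of 5.42e-07), so that peroxiredoxin genes did not all behave as *Prdx1* did. *Sesn3*, a sestrin, rose from 109.8 ± 12.2 to 210.5 ± 12.6 CPM (0.94, adjusted p of 6.40e-06). These 3 were called in each of the 16 other settings. *Prdx2* was at -0.15 (adjusted p of 0.0256), turned to 0.01 with library size alone, and was not called without GFP replicate 3 (adjusted p of 0.106), CRE replicate 1 (0.0751) or CRE replicate 3 (0.0998). Library size alone gave 3 higher and 3 lower of 14, beside 43.0% and 16.2% of all tested genes.

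*Hmox1* (ENSMUSG00000005413, chromosome 8, positions 75093621 to 75100589, plus strand) encodes haem oxygenase 1, the inducible enzyme that opens the haem ring and releases iron, biliverdin and carbon monoxide. It had 405.1, 393.2 and 392.3 CPM in GFP and 332.8, 330.3 and 387.1 CPM in CRE libraries. CRE replicate 3 lay close to the GFP libraries, and the groups did not overlap, as for 59.6% of all tested genes. The log2 fold change was -0.18 (SE 0.06, adjusted p of 0.0309). This call was lost without GFP replicate 2 (adjusted p of 0.0516), GFP replicate 3 (0.0630), CRE replicate 1 (0.128) or CRE replicate 2 (0.131), and with library size alone the change was -0.02 (adjusted p of 0.811). Macrophages are rich in haem oxygenase 1, and the summed macrophage markers were lower in CRE libraries, as given above. That sum was carried mainly by *Cd14* and *Lyz2* (28.1 and 23.5 CPM in GFP libraries), which were lower, as was *Adgre1*. *Cd68* and *Csf1r* did not pass (adjusted p of 0.178 and 0.836). The part of macrophages in the *Hmox1* values was not tested. There were 10.5, 10.6 and 9.28 *Hmox1* counts for each count of the constitutive *Hmox2* in GFP libraries and 8.31, 8.03 and 10.3 in CRE libraries, which overlapped (exact permutation p = 0.2, 0.267 adjusted over 4 ratios).

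Of 9 listed genes of haem and iron handling, all were tested, and 2 were higher and 1 lower, beside 25.5% and 25.7% of all tested genes. With library size alone 4 were higher and 0 lower, beside 43.0% and 16.2%. The number lower was 0 without GFP replicate 3 or CRE replicate 2 and 2 without GFP replicate 1 or CRE replicate 3, and the number higher was 1 without GFP replicate 2 or CRE replicate 3. *Ftl1*, the light chain of the iron store ferritin, rose from 1171 ± 96.7 to 1460 ± 86.1 CPM (log2 fold change 0.32, adjusted p of 0.00225), and was called in all 16 other settings. The heavy chain, *Fth1*, was at 1286 ± 80.9 CPM in GFP and 1212 ± 71.2 CPM in CRE libraries (-0.09, adjusted p of 0.242). It was at 0.08 with library size alone and passed as lower without GFP replicate 1 (-0.14, adjusted p of 0.0433). Ferritin genes, like *Prdx1*, have processed pseudogenes that can share their reads, which leaves their counts uncertain. *Blvrb*, a biliverdin reductase, was higher by 0.26 (adjusted p of 0.0161), which was lost in DESeq2 (0.0667) and without GFP replicate 2 (0.0511) or CRE replicate 3 (0.0542). *Abcb6*, a porphyrin transporter, was lower (log2 fold change -0.33, adjusted p of 0.0142), lost without GFP replicate 3 (0.0513), without CRE replicate 2 (0.0556) and with library size alone (0.155). *Fech*, which inserts iron into haem, was at 0.04 (adjusted p of 0.501) and at 0.20, past the threshold, with library size alone.

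*Nqo1* (ENSMUSG00000003849, chromosome 8, positions 107388225 to 107403206, minus strand) encodes a quinone reductase and is a standard readout of NRF2 activity. It was the least abundant of the 10 genes, with 168, 150 and 181 counts in GFP and 143, 70 and 157 in CRE libraries, or 10.4, 8.46 and 9.40 CPM against 7.68, 3.88 and 8.29 CPM. The groups did not overlap, and CRE replicate 2 stood apart, with under 0.5 times the counts of each other library. The log2 fold change was -0.51 (SE 0.23, 95% interval -1.01 to -0.0038, adjusted p of 0.0856), which did not pass. Without CRE replicate 2 it was -0.23 (adjusted p of 0.187), and without CRE replicate 3 it was -0.70 and passed (adjusted p of 0.0438). DESeq2 also placed it past the threshold (-0.51, adjusted p of 0.0433).

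Other detoxification genes moved in both directions. Of 19 listed, 15 were tested, 3 were higher and 7 lower, beside 25.5% and 25.7% of all tested genes. *Gsta3* and *Gsta4*, alpha-class glutathione transferases, which conjugate glutathione to electrophiles, gave the lowest log2 fold changes of the 15 tested genes. *Gsta1* and *Gsta2* of that class, and *Gstm3*, had too few reads to be tested. *Gsta3* fell from 13.6 ± 0.499 to 3.82 ± 1.21 CPM (log2 fold change -1.83, adjusted p of 1.71e-05) and *Gsta4* from 4.09 ± 0.280 to 1.48 ± 0.234 CPM (-1.47, adjusted p of 0.000155). Both belong to a family of similar genes, so the assignment of reads between members is uncertain. *Aldh3a1*, an aldehyde dehydrogenase, fell from 12.4 ± 1.90 to 5.11 ± 1.40 CPM (-1.27, adjusted p of 0.000239). *Mgst1*, a membrane-bound glutathione transferase, fell from 94.5 ± 9.69 to 68.5 ± 4.06 CPM (-0.47, adjusted p of 0.000493). *Ephx1*, an epoxide hydrolase, rose from 153.9 ± 6.79 to 217.6 ± 1.97 CPM (0.50, adjusted p of 1.30e-05). These 5 calls held in the 16 other settings. *Ugdh*, which makes UDP-glucuronate, was at 0.15 (adjusted p of 0.104) and passed as higher with library size alone (0.31) and without GFP replicate 2 (0.21, adjusted p of 0.0326). With library size alone, 6 of these 15 genes were higher and 5 lower, beside 43.0% and 16.2% of all tested genes.

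NADPH is the reductant on which glutathione reductase, thioredoxin reductase and NQO1 draw. Of 10 genes of NADPH supply, all tested, none was higher and 8 were lower in edgeR, beside 25.5% and 25.7% of all tested genes. None was higher in DESeq2 or limma-voom either, nor in edgeR at an unadjusted p below 0.05. *Idh1*, the cytosolic isocitrate dehydrogenase, fell from 229.4 ± 9.51 to 142.9 ± 10.9 CPM (log2 fold change -0.68, adjusted p of 9.66e-06). *Tkt*, transketolase of the pentose phosphate pathway, fell from 224.9 ± 11.6 to 149.9 ± 6.65 CPM (-0.58, adjusted p of 1.24e-05). *Mthfd2*, of mitochondrial folate metabolism, fell from 75.8 ± 10.04 to 53.6 ± 2.85 CPM (-0.50, adjusted p of 0.000807). These 3 held in the 16 other settings. *Pgd*, of the oxidative branch, was lower by the smallest margin (-0.13, adjusted p of 0.0421). That call was lost with library size alone, where its sign turned (0.03), and without any single library other than GFP replicate 1 (adjusted p of 0.0586 to 0.177). *G6pdx*, of the same branch, and *Taldo1*, both named after their values were seen, did not pass. Their log2 fold changes were -0.10 (adjusted p of 0.150) and -0.01 (0.937). CRE and GFP libraries overlapped for each of them, and each change became positive once libraries were scaled by size alone. The median of the list was -0.31, and with library size alone it was -0.14, with 5 genes lower and 0 higher (16.2% and 43.0% of all tested genes).

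Enzymes that remove superoxide and peroxide directly passed in 1 of 4 cases, where 51.2% of all tested genes did. *Sod2*, the mitochondrial superoxide dismutase, fell from 208.7 ± 33.8 to 115.7 ± 10.99 CPM (log2 fold change -0.85, adjusted p of 0.000112), in all 16 other settings as well. The extracellular *Sod3* (-0.14, adjusted p of 0.334) and catalase, *Cat* (-0.07, adjusted p of 0.291), did not pass, and both were positive with library size alone (0.03 and 0.10). Without GFP replicate 1, *Sod3* passed as lower (-0.25, adjusted p of 0.0293). The cytosolic *Sod1*, named after its values were seen, had 88.3 ± 5.10 CPM in GFP and 95.0 ± 5.19 CPM in CRE libraries (0.11, adjusted p of 0.154) and passed as higher with library size alone and on FPKM values. On the side of oxidant production, 4 of 9 NADPH oxidase genes were tested and 2 were lower and 0 higher, beside 25.7% and 25.5% of all tested genes. None was higher in DESeq2 or limma-voom, nor in edgeR at an unadjusted p below 0.05. *Nox4* had 73.6 ± 10.2 CPM in GFP and 73.7 ± 8.03 CPM in CRE libraries (log2 fold change 0.00, adjusted p of 0.980), with a sign that varied between settings. *Cyba*, the partner subunit of NOX4 and other oxidases, fell from 26.1 ± 0.0158 to 20.4 ± 0.813 CPM (-0.36, adjusted p of 0.00105). *Cybb*, the oxidase of phagocytes, fell from 3.65 ± 0.365 to 1.47 ± 0.624 CPM (-1.32, adjusted p of 0.00247). Of the 5 macrophage markers tested, 3 were lower too, and their part in the *Cybb* values was not tested.

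**Figure D4:**
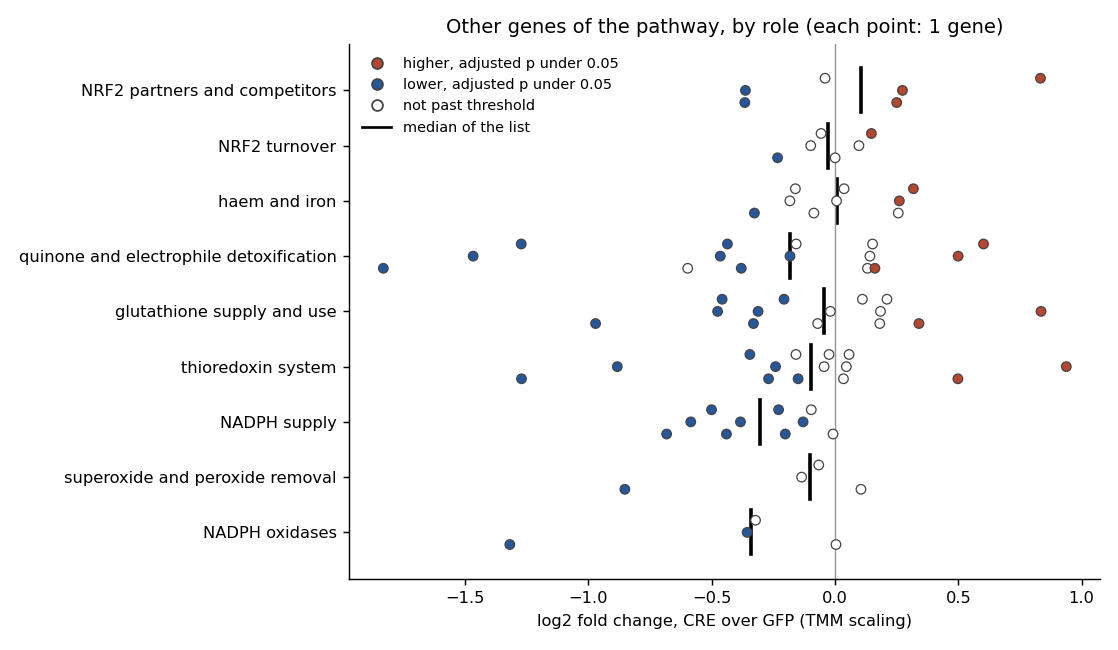
Log2 fold change, CRE over GFP (x axis, TMM scaling), of 82 tested genes of the wider pathway, by role; each point is a gene, coloured where the adjusted p was under 0.05, and black bars mark the median of each list. Most coloured points of the detoxification, glutathione, thioredoxin and NADPH lists lie left of 0, and NADPH supply has none to the right.

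In all, 94 further genes of the pathway were listed, 82 were tested, 13 (15.9%) were higher and 34 (41.5%) lower, where 25.5% of all tested genes were higher and 25.7% lower. Their median log2 fold change was -0.11, against 0.005 over all tested genes. With library size alone 25 (30.5%) were higher and 22 (26.8%) lower, where 43.0% of all tested genes were higher and 16.2% lower, and their median turned to 0.05, against 0.17 over all tested genes. On log2(FPKM + 1) and log2(FPKM + 0.1) values it was 0.06 and 0.06, against 0.13 and 0.17.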

How the data were processed

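RNA-seq libraries of 3 GFP and 3 CRE samples were grouped by their titles. According to the study's methods the reads had been trimmed (Trimmomatic), mapped to GRCm38 (HISAT2), and turned into raw counts per gene (HTSeq-count) and FPKM (Cufflinks). Tool versions and the strand setting are not given in the sources used here, and the labels and methods name different library kits. The authors deposited counts and FPKM values per library, which were used here. Their group mean FPKM, and the log2 fold change, p-value and false discovery rate of the authors' own comparison, were deposited in the same table and were not used.

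Counts of 22063 genes were filtered with filterByExpr (minimum count 10, minimum total 15), scaled by TMM and tested with edgeR 4.0.16 (R 4.3.3, two-sided quasi-likelihood test, Benjamini-Hochberg adjustment over 12862 genes). On simulated libraries, in which far fewer genes were changed than were called here, the test called more unchanged genes than its adjusted p allows. How far that holds for these libraries was not tested, and calls close to the threshold are the least secure. SEs equal the log2 fold change divided by the root of F, without sign, and 95% intervals use the t distribution of that test. Ratios used counts plus 0.5. Genes were located in GENCODE M21 (GRCm38). No library repeated another of its group (pairwise chi-square over genes, divided by the degrees of freedom, of 4.07 to 12.3). Every one of the 10 genes had at least 70 counts in each library.

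The genes, lists and tests were chosen with earlier results of these data known. All 10 genes are named, and of each wider list the 3 most abundant and the 3 with the largest change past the threshold. Alternatives were RLE, upper-quartile or library-size scaling, other filters, DESeq2 1.42.0, limma-voom (limma 3.58.1), limma on log2(FPKM + 1) and log2(FPKM + 0.1), a replicate block, and each library left out.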

Additional observations from a re-analysis of the deposited data

How the results depend on the processing

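*Gclm* (lower) and *Srxn1* (higher) kept their direction and their call in all 16 other settings. Most of the other calls changed with library size alone. Library size alone, limma on log2(FPKM + 1) and limma on log2(FPKM + 0.1) gave 6, 5 and 5 of the 10 genes higher and 1, 1 and 1 lower, 25, 22 and 22 of the pathway list higher and 22, 20 and 20 lower, and 5529, 4976 and 4989 of all genes higher against 2083, 1916 and 1909 lower (main test 3277 and 3306). They shifted the median of all genes by 0.16, 0.13 and 0.16. In the same order *Nfe2l2* passed at 0.214, 0.212 and 0.214, *Keap1* at 0.179, 0.190 and 0.202, *Txnrd1* at 0.189, 0.186 and 0.188, and *Prdx1* turned positive at 0.157, 0.176 and 0.176. *Hmox1* was lost at -0.018, -0.022 and -0.023, and *Gsr* at -0.146, -0.136 and -0.145. *Gclc* passed at 0.175 with library size alone. *Prdx1* was at 0.014 with upper-quartile scaling. With a fold over 1.5 or under 0.66 required at an unadjusted p below 0.05, edgeR called 0 of the 10 genes higher and 0 lower (5 had an unadjusted p under 0.05, as did 57.0% of all tested genes, and DESeq2 and limma-voom also called 0), 4 and 9 of the pathway list, and 967 and 1323 of all genes. DESeq2 called *Nqo1* (-0.512). The *Gclm* to *Gclc* ratio was -0.457 on FPKM.

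Leaving out each library in turn gave ranges of log2 fold change of -0.014 to 0.120 for *Nfe2l2*, -0.035 to 0.068 for *Keap1*, -0.256 to -0.136 for *Hmox1*, -0.698 to -0.234 for *Nqo1*, -0.015 to 0.059 for *Gclc*, -0.0019 to 0.061 for *Txnrd1* and -0.035 to 0.034 for *Prdx1*, and -0.0055 to 0.093 for the *Nfe2l2* to *Keap1* ratio. Replicate numbers did not pair the libraries (correlations of deviations from the group means of 0.046, 0.18 and -0.018 for replicates 1, 2 and 3). With the replicate number as a block, 1 gene was higher and 4 lower, since *Nqo1* passed (-0.539, adjusted p of 0.0269), *Sod3* also passed as lower, and only replicate 2 correlated best with its own number. The cause of the differences on FPKM values was not tested. With 3 libraries a group, no exact test of a single ratio can go below 0.1.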
